A study of Homo sapiens with 6 samples.

Results

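The 30 genes described here encode enzymes of cholesterol synthesis, enzymes of fatty acid synthesis and the regulators that govern both pathways, measured by RNA-seq in HaCaT keratinocytes with and without FGFR2. They were chosen by name and found through the Ensembl identifiers of the deposited tables: 18 belong to the sterol pathway, 7 to the fatty acid pathway and 5 to the SREBP (sterol regulatory element-binding protein) system, out of 21475 genes in all. HaCaT is a spontaneously immortalized, aneuploid human keratinocyte line, grown here in medium with 10% fetal bovine serum and without any further treatment. The WT group comprised 3 unedited HaCaT cell lines, and the KO group 3 clonal HaCaT cell lines in which an exon of *FGFR2* had been targeted with CRISPR/Cas9 and 1 sgRNA. Each line gave 1 library, so the spread within a group includes differences between cell lines. The paper counts the original cell population and clones grown from it as WT lines, and the sample labels do not tell which were sequenced. A caption of the paper describes 3 HaCaT lines of this data set as clonally expanded. The levels are FPKM, that is fragments scaled to gene length and library size, and can therefore be compared between genes of different length.

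Cholesterol is made from acetyl-CoA through mevalonate, isoprenoid diphosphates, squalene and lanosterol, and fatty acids are made from the same acetyl-CoA through malonyl-CoA, followed by elongation and desaturation. Both pathways are switched on by the SREBP transcription factors, which are held in the endoplasmic reticulum as precursors when sterols are plentiful. SCAP escorts the precursors to the Golgi for cleavage, and INSIG proteins retain SCAP in the endoplasmic reticulum. In the epidermis, keratinocytes supply cholesterol and fatty acids for the lipid barrier of the stratum corneum.

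The targeted gene was checked first. *FGFR2* (chromosome 10 from 121478332 to 121598458, GRCh38) had 21.6, 39.7 and 15.02 FPKM in the WT libraries (replicates 1, 2 and 3, an order kept throughout) against 3.04, 2.26 and 4.31 FPKM in the KO libraries, a KO mean of 12.6% of the WT mean. Its log2 fold change was -2.73 (SE 0.36), with a Benjamini-Hochberg (BH) adjusted p of 0.261 (limma across all tested genes). Each library held an estimated 67700000 to 88000000 fragments, and the 10 keratinocyte markers examined were above 0 in each library. Of the markers of other lipid-producing cells, all 5 hepatocyte, 3 of 4 sebocyte and 3 of 4 adipocyte markers were under 0.5 FPKM in every library. So were 3 of 4 melanocyte, 3 of 6 fibroblast and 2 of 4 leukocyte markers. Among the rest, *COL1A1* (fibroblast) had 6.82 to 16.7 FPKM, *CD68* (leukocyte) 4.41 to 20.4 FPKM and *CIDEC* (adipocyte) 1.32 to 1.46 FPKM. *DCN* (fibroblast) had 15.5 FPKM in WT replicate 2. Transcripts of the mitochondrial genome took 21.5% to 27.6% of the FPKM in the WT and 11.9% to 23.7% in the KO libraries. On the first principal component, which held 49.1% of the variance, WT replicate 2 and KO replicate 3 lay at the opposite ends. The same scale put the median log2 fold change of all tested genes at 0.09, and differences of single genes are to be read against this value.

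None of the 30 genes passed both thresholds, which were 0.05 for the adjusted p and 0.5 for the size of the log2 fold change in either direction. Neither did any other gene, since 0 of the 12241 genes tested, those averaging 0.5 FPKM or more, passed (0.0%, limma), while 2065 of them (16.9%) had an unadjusted p of at most 0.05. All 30 members were among the tested genes, and 6 of them had such an unadjusted p. Of these, 2 were higher in the KO lines, against 13.7% of all tested genes, and 4 lower, against 3.17%. With the unadjusted p and the same fold threshold, 12.5% of all tested genes passed, but among the members only *SCD* did. Overlap of the libraries was counted as a description that needs no threshold. For 8 of the 30 genes (26.7%) the WT and KO libraries did not overlap, against 24.1% of all tested genes.

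Directions were uneven among these 8 genes. KO libraries lay below all WT libraries for 5 members (16.7%) and above them for 3 (10.0%), whereas 5.77% of all tested genes lay below and 18.3% above. This split depended on the scaling of the libraries. With median-of-ratios scaling, which brings the median log2 fold change of all genes to -0.00, 8 members did not overlap, against 22.9% of all genes, with 7 below and 1 above, against 10.6% and 12.4%. The 5 members below without further scaling were *SCD*, *INSIG1*, *SC5D*, *MVD* and *IDI1*, and the 3 above were *ACLY*, *ACAT2* and *SCAP*. Over all 30 members the log2 fold change was positive for 15 and negative for 15, with a median of -0.00, and 29 members differed by less than 0.5. The standard errors ran from 0.13 to 0.52 and the adjusted p from 0.261 to 0.984 (limma). The 95% interval of the difference held 0 for 24 members and lay within 1 log2 unit of 0 for 26.

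**Figure D1:**
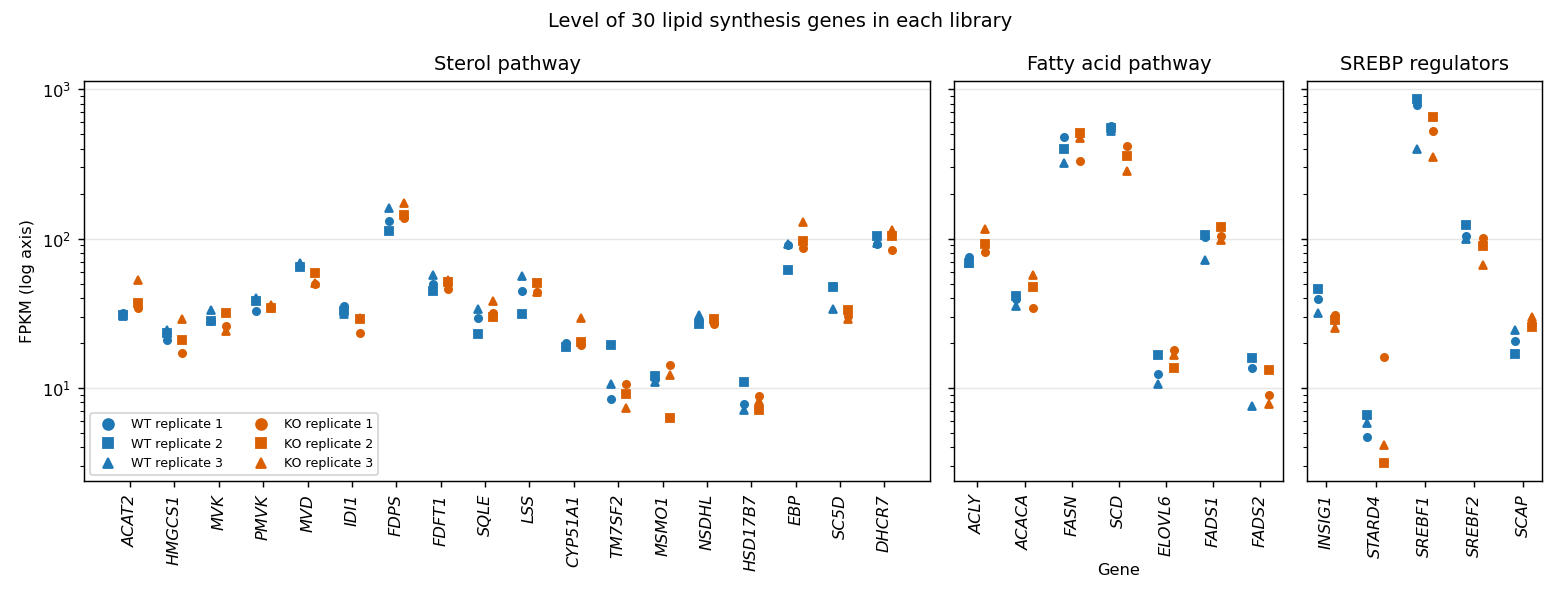
FPKM (log axis) of each of the 30 genes in the 3 WT (blue) and 3 KO (orange) libraries, with 1 point per library and the shape giving the replicate number. *SREBF1*, *SCD* and *FASN* stood highest, between 283 and 859 FPKM, and for 22 of the genes the points of both groups overlapped.

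The promoters of these genes were examined for the short sequences to which SREBP and its partners are known to bind. RefSeq windows (GRCh38.p14) from 250 bases before to 50 bases after the transcription start were at hand for 26 of the members, and both strands were searched. The NF-Y box, CCAAT, which binds a factor that cooperates with SREBP, was present in 20 of the 26 members, among them 13 of 15 sterol pathway genes (86.7%), 4 of 6 fatty acid genes and 3 of 5 regulators. It was found in 43.7% of the tested genes with a window and in 34.6% of all windows. The exact sterol regulatory element TCACNCCAC occurred in 1 member, *SREBF2*, and in 1.52% of the tested genes. The exact E-box TCACGTGA occurred in 1 member, *INSIG1*, and in 2.42% of the tested genes. The GC box GGGCGG, bound by SP1, was frequent everywhere, in 25 of the 26 members and in 77.4% of the tested genes. A match describes these letters in this window only, and binding was not measured.

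The sites below are the 2 exact SREBP-type matches and NF-Y boxes of the 4 other members whose KO libraries all lay under the WT libraries, each as 29 bases in the direction of the gene with the match in capitals (an NF-Y box on the opposite strand reads ATTGG). The listing is not complete: *MVD* had 3 NF-Y boxes and *IDI1* 5 over its windows, of which 1 each is shown, and the NF-Y boxes of *SREBF2* and *INSIG1* are left out. NF-Y boxes were also found in members whose KO libraries did not lie below the WT libraries, such as *ACLY*, *MVK* and *NSDHL*.
SREBF2, chr22:41832962-41832990, plus strand, sterol regulatory element: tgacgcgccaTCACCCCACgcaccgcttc
INSIG1, chr7:155297812-155297840, plus strand, E-box: ccgggcaggcTCACGTGAtgcgggccccg
SCD, chr10:100346994-100347022, plus strand, NF-Y box: ttgcgccgagCCAATggcaacggcaggac
SCD, chr10:100347037-100347065, plus strand, second NF-Y box: ttcccttcggCCAATgacgagccggagtt
SC5D, chr11:121292705-121292733, plus strand, NF-Y box: ccggtcgctgATTGGctggccgctccagc
MVD, chr16:88663158-88663186, minus strand, NF-Y box: ctcgcacgggCCAATcctgtggtagcgcg
IDI1, chr10:1048955-1048983, minus strand, NF-Y box: ggcgcgagcgATTGGctgcgcggcccggg

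The sterol pathway showed no common direction. Of its 18 genes, 8 had a positive and 10 a negative log2 fold change, with a median of -0.04. None passed the unadjusted thresholds, and 2 (*MVD* and *SC5D*, both lower in the KO lines) had an unadjusted p of at most 0.05 (limma). The summed level of the 18 genes was 775, 730 and 834 FPKM in the WT lines and 725, 791 and 891 FPKM in the KO lines, so the groups overlapped. The 7 genes of the steps up to farnesyl diphosphate had a median log2 fold change of -0.07, and the 11 genes of the squalene and sterol steps one of 0.01.

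At the entry to the pathway, *ACAT2*, the cytosolic thiolase that joins acetyl-CoA units, had 31.9, 30.7 and 30.1 FPKM in the WT lines and 34.4, 36.8 and 52.7 FPKM in the KO lines. All KO libraries lay above all WT libraries, with KO replicate 3 far above the rest (log2 fold change 0.39, SE 0.18, limma BH-adjusted p = 0.317). On 454 bases, the exons of *ACAT2* overlap those of *TCP1*, a chaperonin gene on the opposite strand, which had 144 to 215 FPKM in the WT and 242 to 404 FPKM in the KO libraries. The library kit keeps strand, but whether the quantification used it is not given in the sources used here, and the part of *TCP1* reads in the value of *ACAT2* was not tested. The next gene, *HMGCS1*, which encodes HMG-CoA synthase, had 20.8, 23.3 and 24.5 FPKM in the WT lines and spread from 17.1 to 28.8 FPKM in the KO lines, so that the KO range enclosed the WT range.

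The kinases that phosphorylate mevalonate had overlapping groups, with log2 fold changes of -0.13 (SE 0.15) for *MVK* and -0.07 (SE 0.13) for *PMVK*. *MVD* (chromosome 16 from 88651935 to 88663161), which encodes mevalonate diphosphate decarboxylase, had 65.1, 65.0 and 69.1 FPKM in the WT lines and 49.8, 58.6 and 50.4 FPKM in the KO lines. The WT libraries lay close together, and each KO library was lower (66.4 ± 2.35 against 52.9 ± 4.95 FPKM, SD, n = 3 each). The log2 fold change was -0.33 (SE 0.13, limma BH-adjusted p = 0.275), and the exact two-sided permutation test gave p = 0.1, the smallest it can give with 3 libraries against 3. *IDI1*, the isomerase of isopentenyl diphosphate on chromosome 10 from 1039152 to 1049119, had 35.4, 32.8 and 31.5 FPKM in the WT lines and 23.3, 28.8 and 29.4 FPKM in the KO lines. KO replicate 1 was the lowest, and the other KO libraries lay just under the WT range (log2 fold change -0.29, SE 0.14, limma BH-adjusted p = 0.336). The 463 tested genes of chromosome 10 had a median log2 difference from the WT mean of -0.33 in KO replicate 1, -0.11 in KO replicate 2 and -0.05 in KO replicate 3. With the median of each chromosome removed, the difference of *IDI1* was -0.13 and its groups overlapped. *FDPS*, which makes farnesyl diphosphate, was the most abundant sterol pathway gene, with 112 to 161 FPKM in the WT and 138 to 174 FPKM in the KO lines.

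From squalene to lanosterol no gene separated the groups. *FDFT1*, the squalene synthase, had 44.4 to 56.8 FPKM in the WT and 46.3 to 53.3 FPKM in the KO lines, with a log2 fold change of 0.01 (SE 0.14). *SQLE*, the squalene epoxidase and a rate-controlling enzyme of the later pathway, had 23.1 to 33.6 FPKM in the WT and 30.1 to 38.1 FPKM in the KO lines (0.22, SE 0.18). *LSS*, the lanosterol synthase, spread from 31.3 to 56.3 FPKM within the WT group and from 43.7 to 50.3 FPKM within the KO group. It lies on chromosome 21, whose 121 tested genes had a median log2 difference from the WT mean of 0.34 to 0.47 in the 3 KO libraries, and its log2 fold change of 0.10 was -0.30 with chromosome medians removed.

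Among the enzymes that convert lanosterol to cholesterol, *SC5D* (chromosome 11 from 121292681 to 121313410), the sterol desaturase of a late step, was the single gene whose libraries did not overlap. It had 47.8, 47.4 and 34.1 FPKM in the WT lines and 30.4, 33.3 and 28.96 FPKM in the KO lines. WT replicate 3 stood only just above the highest KO library, and the other WT libraries were well above (log2 fold change -0.46, SE 0.17, limma BH-adjusted p = 0.263). *SC5D* is one of 2 members that passed both thresholds when limma was given library weights (-0.59, BH-adjusted p = 0.038), a fit in which 11.4% of all tested genes passed. That fit gave WT replicate 1 a weight of 10.3 and all other libraries weights from 0.36 to 1.49. With the libraries scaled to nuclear transcripts, the groups of *SC5D* overlapped.

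The remaining sterol genes overlapped. *EBP*, the sterol isomerase, had 90.8, 61.7 and 92.3 FPKM in the WT and 87.0, 96.4 and 129 FPKM in the KO lines, a log2 fold change of 0.35 (SE 0.22). *CYP51A1*, the lanosterol demethylase, was tight in the WT lines, at 18.7 to 20.01 FPKM, and in KO replicates 1 and 2, at 19.3 and 20.3 FPKM, while KO replicate 3 had 29.4 FPKM. *TM7SF2*, a sterol reductase, was set apart by a single WT library, with 19.4 FPKM in WT replicate 2 against 7.37 to 10.7 FPKM in the other 5 libraries (-0.41, SE 0.30), and without WT replicate 2 its difference was -0.08. *MSMO1*, a methylsterol oxidase, had 6.24 FPKM in KO replicate 2 and 11.0 to 14.3 FPKM elsewhere. *NSDHL* and *HSD17B7*, which act together in removing methyl groups from the sterol ring, had log2 fold changes of -0.01 (SE 0.13) and -0.08 (SE 0.20). *DHCR7*, the last reductase of the pathway, had 91.5 to 104 FPKM in the WT and 83.3 to 115 FPKM in the KO lines (0.05, SE 0.16).

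**Figure D2:**
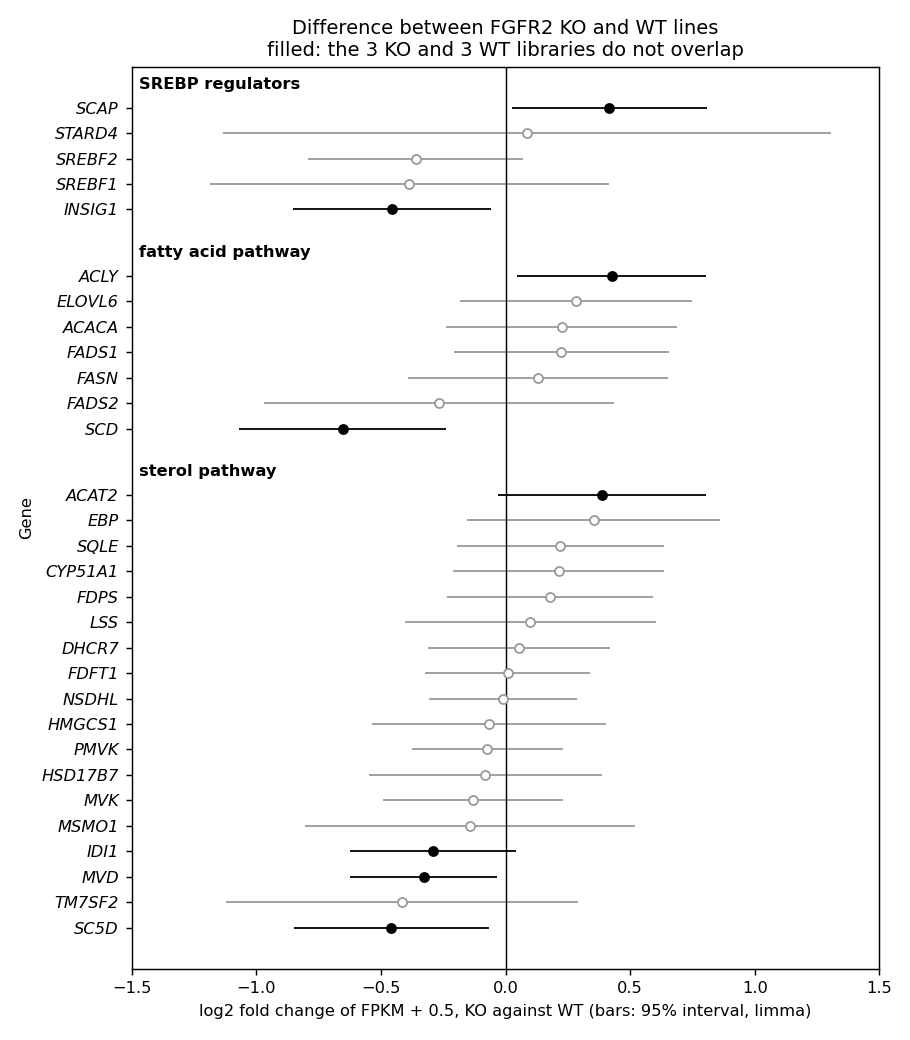
Log2 fold change of FPKM + 0.5 (KO against WT, x axis) of each of the 30 genes with its 95% interval from limma, ordered within the 3 groups. Filled points mark the 8 genes whose libraries did not overlap, and 24 of the intervals include 0.

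The fatty acid pathway contained the member with the largest absolute difference, *SCD*, and 5 of the other 6 genes had positive log2 fold changes. The median of the 7 genes was 0.22. 1 of the 7 passed the unadjusted thresholds, and the groups did not overlap for 2, *SCD* and *ACLY*. The library medians of the 7 genes, relative to the mean of the WT libraries, were 0.08, 0.09 and -0.27 in the WT and -0.17, 0.29 and 0.27 in the KO lines. WT replicate 3 and KO replicate 1 were thus the low libraries, and the pathway as a whole did not sort by genotype.

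*SCD* (chromosome 10 from 100347233 to 100364826), which encodes stearoyl-CoA desaturase and places the double bond of oleate and palmitoleate, was the second most abundant of the 30 genes in the WT lines and ranked 137 of all tested genes. It had 570, 549 and 525 FPKM in the WT lines and 417, 357 and 283 FPKM in the KO lines. Every KO library was below every WT library, and the KO lines were more spread than the WT lines (548 ± 22.4 against 352 ± 66.7 FPKM, SD, n = 3 each). The KO mean was 0.643 times the WT mean. The log2 fold change was -0.65 (SE 0.18, unadjusted p = 0.007, limma BH-adjusted p = 0.261), and the exact two-sided permutation test gave p = 0.1, the smallest possible. Leaving out each library in turn moved it from -0.78 to -0.51. With library weights the adjusted p was 0.036 (limma), and *SCD* passed both thresholds. *SCD* lies on chromosome 10, as does *FGFR2*, and with the chromosome medians given above removed its difference was -0.49, under the fold threshold, and the groups overlapped.

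The genes upstream of *SCD* ran in the other direction or did not separate. *ACLY*, which cleaves citrate to supply cytosolic acetyl-CoA to both pathways, had 75.03, 69.0 and 68.3 FPKM in the WT lines and 80.8, 91.5 and 117 FPKM in the KO lines. All KO libraries were above the WT range, KO replicate 1 by the smallest margin (log2 fold change 0.43, SE 0.16, limma BH-adjusted p = 0.273). With median-of-ratios scaling its difference was 0.33 and the groups overlapped. *ACACA*, the acetyl-CoA carboxylase that commits carbon to fatty acids, had 39.4, 41.1 and 35.2 FPKM in the WT and 34.1, 47.1 and 57.0 FPKM in the KO lines. *FASN*, the fatty acid synthase, had 478, 397 and 321 FPKM in the WT and 334, 506 and 474 FPKM in the KO lines. For both genes KO replicate 1 lay with or below the lower WT libraries and the other KO libraries lay above the WT mean, giving 0.22 (SE 0.20) for *ACACA* and 0.13 (SE 0.22) for *FASN*. *ACLY*, *ACACA* and *FASN* all lie on chromosome 17. The median log2 difference of its tested genes from the WT mean was 0.06, 0.13 and -0.18 in the WT libraries. In the KO libraries it was 0.08, 0.20 and 0.24. With chromosome medians removed the differences were 0.25 for *ACLY*, 0.05 for *ACACA* and -0.04 for *FASN*.

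The elongase and the other desaturases also overlapped. *ELOVL6*, which extends palmitate to stearate, the substrate of SCD, had 10.7 to 16.6 FPKM in the WT and 13.5 to 17.99 FPKM in the KO lines (0.28, SE 0.20). *FADS1* and *FADS2*, the desaturases of polyunsaturated fatty acids, lie head to head on chromosome 11. *FADS1* had 71.4 to 105 FPKM in the WT and 97.6 to 120 FPKM in the KO lines (0.22, SE 0.18), and *FADS2* had 7.62 to 15.9 FPKM and 7.85 to 13.1 FPKM (-0.27, SE 0.30). Their exons share 490 bases on opposite strands in the annotation, so the same open question of strand applies.

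**Figure D3:**
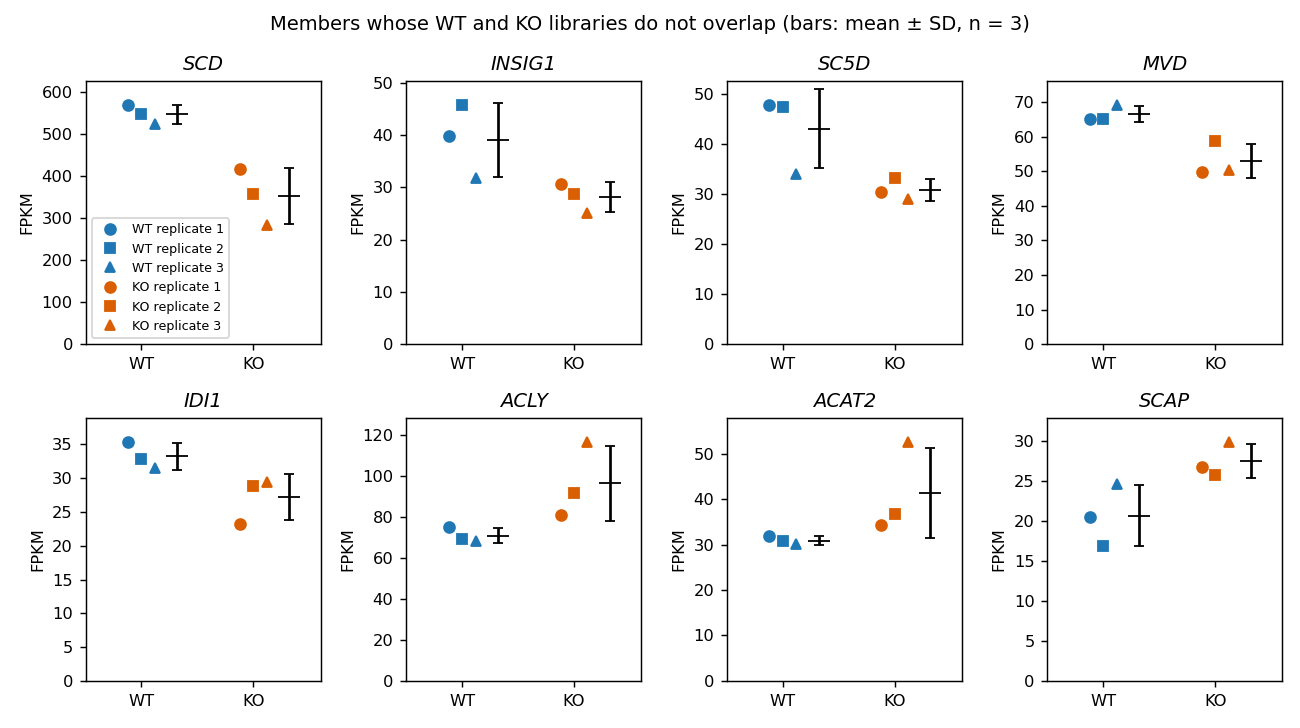
FPKM of the 8 genes whose WT (blue) and KO (orange) libraries did not overlap, 1 point per library, with the mean ± SD (n = 3) as black bars. *SCD*, *INSIG1*, *SC5D*, *MVD* and *IDI1* were lower and *ACLY*, *ACAT2* and *SCAP* higher in each KO library, and the gap was widest for *SCD*, between 525 and 417 FPKM.

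Ratios within a library do not depend on the scaling of that library and were used to set *SCD* beside *ACLY*, *ACACA*, *FASN* and *FADS1*. Differences between chromosomes remain in such ratios. *SCD* lies on chromosome 10 and *ACLY*, *ACACA* and *FASN* lie on chromosome 17, with the chromosome medians given above. For the tested genes of chromosome 11, where *FADS1* lies, the medians were -0.12, 0.23 and -0.11 in the WT libraries. In the KO libraries they were 0.08, -0.01 and 0.07. The part of these medians in the ratios was not tested. The ratio of *SCD* to *ACLY* was 7.60, 7.95 and 7.69 in the WT lines and 5.16, 3.90 and 2.43 in the KO lines. The WT lines were nearly identical in this ratio. That all KO lines were lower follows from the separation of each gene in opposite directions, as it does for *IDI1* to *ACAT2*. The ratio to *ACACA* was 14.5, 13.4 and 14.9 in the WT and 12.2, 7.58 and 4.98 in the KO lines, and that to *FADS1* was 5.55, 5.22 and 7.36 against 3.97, 2.97 and 2.90. Both also separated the groups, as *SCD* did on its own. The ratio of *SCD* to *FASN* did not, with 1.19, 1.38 and 1.64 in the WT and 1.25, 0.705 and 0.598 in the KO lines, since KO replicate 1 lay within the WT range. The ratio of *FASN* to *ACACA* overlapped, at 9.10 to 12.2 in the WT and 8.32 to 10.7 in the KO lines. In the sterol pathway the ratios of *IDI1* to *ACAT2*, of *MVD* to *FDPS* and of *SC5D* to *DHCR7* were lower in all KO libraries. These pairs were formed after the values of their members had been seen, and a ratio shows unequal change of its genes, not which of them changed.

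The SREBP regulators, with the sterol carrier gene *STARD4* counted among them, had a median log2 fold change of -0.36 over 5 genes, 2 of them higher and 3 lower in the KO lines. None passed the unadjusted thresholds, and *INSIG1* and *SCAP* had an unadjusted p of at most 0.05 (limma). *INSIG1* (chromosome 7 from 155297776 to 155310235), which encodes the protein that retains SCAP in the endoplasmic reticulum and is itself a known SREBP target, had 39.7, 45.7 and 31.7 FPKM in the WT lines and 30.6, 28.7 and 25.01 FPKM in the KO lines. The KO libraries were all lower, though WT replicate 3 and KO replicate 1 were only about 1 FPKM apart (log2 fold change -0.46, SE 0.17, limma BH-adjusted p = 0.268). *SCAP* (chromosome 3 from 47413681 to 47477126), which encodes the sterol-sensing escort of SREBP, went the other way, with 20.5, 16.8 and 24.5 FPKM in the WT and 26.7, 25.8 and 29.9 FPKM in the KO lines (0.42, SE 0.17, limma BH-adjusted p = 0.284). The ratio of *INSIG1* to *SCAP* was 1.94, 2.72 and 1.29 in the WT lines and 1.15, 1.11 and 0.837 in the KO lines. This separation follows from those of both genes and adds nothing to them.

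The genes of the SREBP factors themselves did not separate. *SREBF1*, which encodes the factor linked mainly to fatty acid genes, had the highest mean level of the 30 genes in the WT lines, with 786, 859 and 400.5 FPKM, and 522, 653 and 355 FPKM in the KO lines. In both groups replicate 3 was the lowest library, and the difference (-0.39, SE 0.34) was close to its error. *SREBF2*, linked mainly to sterol genes, had 105, 123 and 99.0 FPKM in the WT lines and 100.5, 89.9 and 66.2 FPKM in the KO lines. KO replicate 1 lay between the WT libraries and the other KO libraries below them (-0.36, SE 0.19, limma BH-adjusted p = 0.355). After median-of-ratios scaling its groups no longer overlapped, with a difference of -0.46. The ratio of *SREBF1* to *SREBF2* was 4.05 to 7.52 in the WT and 5.20 to 7.27 in the KO lines. *STARD4*, which carries sterols between membranes, had the lowest mean level of the 30 genes, and its KO mean rested on a single library, with 16.1 FPKM in KO replicate 1 against 3.13 to 6.55 FPKM in the other 5. Its log2 fold change of 0.09 (SE 0.52) was -0.59 without KO replicate 1. The transcript levels given here do not measure the cleavage of SREBP, and in bulk RNA fewer cells with a transcript and less of it per cell cannot be told apart.

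The variation among the lines was of the same order in both groups. The median coefficient of variation of the 30 genes was 14.3% in the WT and 15.1% in the KO lines. It exceeded 20% for 8 genes in the WT and for 11 in the KO lines. KO replicate 3 held the highest of the 6 values for 10 genes and the lowest for 7, so no single library was high or low throughout.

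Neighbouring pathways were examined with lists of further genes. Among 14 other enzymes of sterol and isoprenoid synthesis the median log2 fold change was 0.08, and 2 passed the unadjusted thresholds, both higher in the KO lines, against 10.2% of all tested genes in that direction. *ACAT1*, the mitochondrial counterpart of *ACAT2*, had 28.4, 23.3 and 22.0 FPKM in the WT and 35.4, 35.9 and 38.8 FPKM in the KO lines (0.58, SE 0.14, limma BH-adjusted p = 0.261). *PDSS1*, which makes the side chain of coenzyme Q, had 6.21, 7.20 and 8.13 FPKM in the WT and 9.67, 8.75 and 18.6 FPKM in the KO lines (0.67, SE 0.28, limma BH-adjusted p = 0.295). Neither gene had overlapping groups.

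Among 17 other enzymes of fatty acid metabolism the median was 0.09, and 3 passed the unadjusted thresholds. One of them, the elongase gene *ELOVL7*, was near the filter, with 0.413 to 0.606 FPKM in the WT and 0.726 to 1.58 FPKM in the KO lines. Its WT mean was 0.499 FPKM, so it was tested only because of its KO values, and its call supports nothing further. The other two were named after their values were seen. *ACACB*, the mitochondrial form of acetyl-CoA carboxylase, had 10.7 to 11.9 FPKM in the WT and 5.41 to 10.8 FPKM in the KO lines, and *ACSL1*, which activates fatty acids with coenzyme A, had 22.7 to 31.8 FPKM and 9.99 to 23.9 FPKM. The groups overlapped for both, and 2.33% of all tested genes passed in this direction.

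For sterol uptake, storage and efflux 1 of 13 genes passed the unadjusted thresholds, with a list median of -0.02. It was *LRP8*, a lipoprotein receptor of the low-density lipoprotein receptor family, with 13.3, 9.03 and 15.7 FPKM in the WT and 23.9, 19.0 and 27.6 FPKM in the KO lines. All KO libraries were above the WT libraries (0.88, SE 0.23, limma BH-adjusted p = 0.261). Of 12 genes for the processing and partners of SREBP none passed the unadjusted thresholds (limma), the median was -0.04, and 1 had an unadjusted p of at most 0.05. This was *MBTPS2*, a protease that releases SREBP from the membrane, named after its values were seen, with 4.59 to 5.35 FPKM in the WT and 5.57 to 8.76 FPKM in the KO lines. The groups did not overlap for 6 of the 12 genes (against 24.1% of all tested genes), with *MBTPS2*, *ERLIN1* and *NFYA* above and *MBTPS1*, *FBXW7* and *NFYC* below, all named after their values were seen. Of 14 genes of fatty acid oxidation, which runs opposite to synthesis, none passed the unadjusted thresholds and 0 had an unadjusted p of at most 0.05 (limma), with a median of 0.02. Groups without overlap were found for 4 of the 14 other sterol and isoprenoid genes, 2 of the 17 other fatty acid genes, 3 of the 13 genes of uptake, storage and efflux and 1 of the 14 oxidation genes.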

How the data were processed

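The data set holds 6 libraries of HaCaT RNA, each from its own cell line, 3 of them WT and 3 *FGFR2* KO. The authors trimmed the reads with fastp 0.20.0, pseudoaligned them with kallisto 0.46.1 to GRCh38 with GENCODE gene models, and deposited 1 FPKM value per gene and library. How FPKM was calculated is not given in the sources used here. Of 21493 genes listed, 18 Y copies of pseudoautosomal genes were left out, and 21400 of the other 21475 received a GENCODE release 44 symbol, from which all positions were taken. Low FPKM values were whole fragments within 0.02 for 66.7% to 70.6%, against 4% by chance, so whole reads were not recovered and no count model was run.

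The test was limma 3.58.1 (R 4.3.3) applied to log2(FPKM + 0.5) for genes averaging 0.5 FPKM or more, with a mean-variance trend and Benjamini-Hochberg adjustment over 12241 genes. Fold changes are on this scale, which understates the change of low genes. The p-values set each difference against the spread between cell lines, moderated by the trend over all tested genes. The fit was also run on simulated data whose changes were larger than any difference of the members. That run therefore does not bear on differences of their size. The members, lists and tests were chosen with earlier results of these data known. Named were all 30 members, *FGFR2* and, from each other list, up to 4 genes past the unadjusted thresholds whose groups did not overlap. Alternatives were pseudocounts of 0.1 and 1, the filter dropped or raised to 2 FPKM, TPM, median-of-ratios, quantile and nuclear-gene scaling, removal of chromosome medians, other empirical Bayes settings, library weights, the replicate number as a block, and leaving out each library. Counts of members without overlap under these alternatives were decided on after seeing the data.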

Additional observations from a re-analysis of the deposited data

How the results depend on the processing

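Of the 30 members, 19 kept the sign of their log2 fold change in all 19 alternatives, among them the 8 whose libraries did not overlap. Filter, empirical Bayes and replicate block settings do not alter the log2 fold change, so they could not change a sign. For the 8 members without overlap, neither pseudocounts, library weights nor leaving out a library could change it. Their kept signs thus tell only of the scalings and the removal of chromosome medians. No member passed both thresholds under any alternative other than library weights. With these weights *SCD* and *SC5D* did, among 1396 genes in all that passed both (limma). That fit rests largely on WT replicate 1. With median-of-ratios scaling *DHCR7* was at -0.043, *FDFT1* at -0.087 and *STARD4* at -0.0018. With nuclear-gene scaling *DHCR7* was at -0.027 and *FDFT1* at -0.072, and with quantile normalization *DHCR7* at -0.060, *FDFT1* at -0.12 and *LSS* at -0.013. With chromosome medians removed *FASN* was at -0.040, *FDFT1* at -0.20 and *LSS* at -0.30, and with TPM scaling *NSDHL* was at 0.027. With library weights *FASN* was at -0.25, *FDFT1* at -0.036, *HSD17B7* at 0.073, *MSMO1* at 0.0012, *PMVK* at 0.045 and *TM7SF2* at 0.14. Leaving out each library in turn gave ranges of -0.049 to 0.18 for *DHCR7*, -0.017 to 0.32 for *FASN*, -0.076 to 0.10 for *FDFT1*, -0.26 to 0.10 for *HMGCS1*, -0.21 to 0.10 for *HSD17B7*, -0.12 to 0.30 for *LSS*, -0.37 to 0.20 for *MSMO1*, -0.052 to 0.053 for *NSDHL* and -0.59 to 0.51 for *STARD4*. It moved the genes past the unadjusted thresholds from 630 (without KO replicate 3, and 960 without WT replicate 1) to 2256, the regulators among them from 0 to 3 (2 without KO replicate 1: *INSIG1* and *STARD4*, and 3 without WT replicate 3: *INSIG1*, *SREBF1* and *SCAP*), the fatty acid genes from 1 to 2 (*ACLY* joined without KO replicate 1) and the sterol genes from 0 to 1. The members without overlap ranged from 3 to 6 above (6 without KO replicate 1, 5 without WT replicate 3) and from 5 to 8 below (8 without WT replicate 3), and the sterol median from -0.081 to 0.047. Groups with fewer libraries separate more easily, so the counts without overlap could not fall below those of all 6 libraries. The shares of all tested genes are not given for these fits, so the rise is not a result about the members. The sterol median was -0.14 with chromosome medians removed, -0.13 with median-of-ratios, -0.12 with nuclear-gene scaling and -0.14 with quantile normalization. Under each of these 4, and with library weights, 1 sterol gene (*SC5D*) passed the unadjusted thresholds. For the regulators 1 passed (*INSIG1*) with median-of-ratios, nuclear-gene scaling and quantile normalization, and 2 (*INSIG1* and *SREBF2*) with chromosome medians removed, where 0 fatty acid genes passed. With chromosome medians removed, median-of-ratios or nuclear-gene scaling, 1 member (*SCAP*) lay above without overlap. The causes of these shifts were not tested. Each library came from its own cell line, and the labels give no pairing of WT and KO libraries beyond the replicate number. Deviations of WT and KO libraries with the same number correlated at -0.21, 0.22 and 0.05. Those with unlike numbers correlated from -0.37 to 0.29, so these values cannot decide whether the numbers pair the samples. With the replicate block 0 genes passed both thresholds and 1762, against 1536, the unadjusted ones, with no member changing its call. Depth is known only as an estimate, and with 3 lines a group, differences such as those of the 24 members whose interval holds 0 could not be resolved.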
